A study of Mus musculus with 6 samples.

Results

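The array used here carries 16246 probes for long intergenic non-coding RNAs (lincRNAs), out of 55681 non-control probes. They were chosen by the prefix of their probe name, which marks the lincRNA class of the design, and the 5 probes of that class for H19 itself were left out. The 16246 probes stand for 4621 annotated transcripts, 11 of them named by a symbol (52 probes) and the rest by a genomic interval and strand, with suffix F for the forward and R for the reverse strand. RNA came from cardiomyocytes isolated by retrograde perfusion from hearts of adult mice 6 weeks after transverse aortic constriction (TAC), a band on the aorta that makes the left ventricle pump against a raised pressure. The 2 groups were H19 knockout mice (KO, 3 arrays) and their wild-type littermates (WT, 3 arrays), and both groups had the operation. The labels do not say that each array is 1 mouse, so the p-values reflect the spread between these 6 samples, which may be technical. No source used here states which part of the H19 allele was deleted, and unoperated hearts were not analysed here.

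LincRNAs are transcribed from their own sites between protein-coding genes, are often spliced and polyadenylated like messenger RNAs, and code for no known protein. Most are present at few copies per cell and in few tissues. Well-studied members act in the nucleus, where some hold proteins together in nuclear bodies (Neat1) or silence a chromosome (Xist), and many others have no known role. H19, the gene removed here, is itself a lncRNA, transcribed from the maternal chromosome, and gives rise to a microRNA. The comparison addresses which other transcripts of this class differ in its absence in the pressure-loaded heart.

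Each probe is a single 60-base sequence assigned to 1 strand of the genome. The sequences below are those on which the results turn, as the deposited files give them, with mm9 positions. The first set belongs to the transcript with the lowest adjusted p in the class, chr9:88575075-88611650_R, and to the transcript on the other strand of that interval. Capitals mark 55 bases that probes A_30_P01033228 and A_30_P01017555 share as reverse complements, so that they read opposite strands of the same stretch.
A_30_P01032767 (reverse strand, chr9:88598866-88598925): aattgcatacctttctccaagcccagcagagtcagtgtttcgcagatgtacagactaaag
A_30_P01033228 (reverse strand, chr9:88598768-88598827): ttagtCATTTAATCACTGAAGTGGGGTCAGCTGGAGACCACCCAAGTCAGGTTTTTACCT
A_30_P01017555 (forward strand, chr9:88598763-88598822): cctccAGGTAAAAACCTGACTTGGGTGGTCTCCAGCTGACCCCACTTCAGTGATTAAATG

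The second set holds probes from both strands of the Tug1 region and of a region on chromosome 10, which gave 12 and 6 of the 44 probes that were higher in KO at an unadjusted p of 0.05. It is followed by a member detected only in KO and by one of the brightest members, in which capitals mark the hexamer AATAAA, the canonical polyadenylation signal.
A_30_P01033104 (TUG1, reverse strand, chr11:3540263-3540322): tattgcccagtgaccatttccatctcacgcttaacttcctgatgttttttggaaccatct
A_30_P01021848 (reverse strand, chr11:3542264-3542323): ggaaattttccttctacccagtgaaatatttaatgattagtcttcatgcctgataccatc
A_30_P01030992 (forward strand, chr11:3548516-3548575): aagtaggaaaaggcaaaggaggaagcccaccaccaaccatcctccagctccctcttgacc
A_30_P01025883 (forward strand, chr10:6511165-6511224): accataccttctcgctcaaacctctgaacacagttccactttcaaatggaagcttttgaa
A_30_P01026658 (reverse strand, chr10:6497516-6497575): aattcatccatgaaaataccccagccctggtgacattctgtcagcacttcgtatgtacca
A_30_P01018774 (reverse strand, chr2:31001965-31002024): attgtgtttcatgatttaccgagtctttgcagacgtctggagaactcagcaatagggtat
A_30_P01022075 (reverse strand, chr17:17482318-17482377): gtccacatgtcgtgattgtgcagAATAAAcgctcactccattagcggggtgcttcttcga

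Signals are given as log2 of the background-subtracted intensity relative to the 75th percentile of all non-control probes on the same array, and a difference is KO minus WT on that scale with its standard error (SE). The arrays had between 48.8% and 58.6% of spots well above background, 0 saturated spots and 75th percentiles between 774 and 1152. Signals of the tested lincRNA probes correlated at r between 0.935 and 0.976 within a genotype and between 0.931 and 0.976 across genotypes (5914 probes, which share arrays). The genotype labels were checked at H19 itself. Of its 7 probes, 5 were well above background on all 3 WT arrays and 0 on any KO array. The brightest gave 1.09 ± 0.52 (SD, n = 3) in WT, was not well above background in KO, and was at least 32.4-fold lower there (limma, adjusted p = 0.00192). Cardiomyocyte markers were bright on all 6 arrays (mean signal over 13 genes from 7.64 to 7.90). Of the marker lists of other cells, 14 of 15 fibroblast genes were higher in KO with 0 called, and all 13 macrophage genes were lower with 0 called; scaling to the median of all probes turned 7 of those 13 to higher. Of 8 atrial cardiomyocyte genes 5 were lower in KO and 0 called (limma), with 3 lower at an unadjusted p of 0.05: Sln at -4.82, Myl7 at -3.50 and Myl4 at -2.78. Their list had mean signals from 2.09 to 3.33 on the WT arrays and from 1.42 to 1.65 on the KO arrays. Median scaling called 3 of the 8 and turned 2 more above 0, with no share over all tested probes given for that scaling. Mean signals of the fibroblast list ranged from 2.98 to 4.10 on the WT arrays and from 3.43 to 4.86 on the KO arrays, and those of the macrophage list from 1.64 to 2.14 and from 1.02 to 2.08. Red cell genes varied most between arrays, with a mean signal from 0.47 to 4.41 in WT and from -0.43 to 5.03 in KO over 5 tested genes. The part of these cells in the lincRNA results was not tested.

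The detected share of lincRNA probes was smaller than that of the other probes on each of the 6 arrays. In WT, 36.5%, 36.9% and 37.3% of them were well above background, and in KO 28.1%, 41.2% and 30.5%. Among the probes of other classes the shares ran from 60.6% to 61.5% in WT and from 55.7% to 64.5% in KO. The KO arrays thus spread widely on both sides of the closely grouped WT arrays, and KO replicate 2 had the highest share of both kinds of probe. The means of 36.9% ± 0.40 in WT and 33.3% ± 7.01 in KO (SD, n = 3) gave p = 0.4 by the exact two-sided permutation test (where 3 against 3 arrays cannot give less than 0.10), so a difference was not shown. For the other classes the means were 61.2% and 59.4% (exact permutation p = 0.6).

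**Figure D1:**
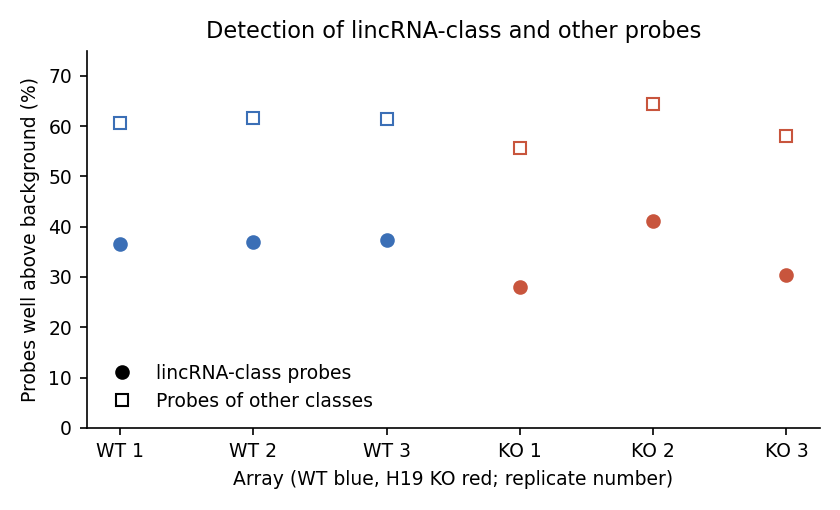
Share of probes well above background on each array (%), for lincRNA-class probes (filled circles) and probes of other classes (open squares), with WT in blue and H19 KO in red. The WT arrays sit together at 36.5% to 37.3% for lincRNA probes, while the KO arrays run from 28.1% to 41.2%.

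Of the 16246 members, 8193 were well above background on 0 of the 6 arrays, 2129 on 1 or 2, 2120 on 3 to 5 and 3794 on all 6; a further 10 had no usable spot on at least 1 array. The 5914 probes detected on at least 3 arrays entered the test (36.4% of the usable ones, against 61.1% of the other classes), and 2913 of the 4621 transcripts had at least 1 such probe. The other 10322 usable probes were not tested, and nothing is said here of their transcripts in either genotype. For probes that passed, the mean signal over the 6 arrays had a median of -2.63, against 0.43 for the other classes; signals of different probes also depend on the probe itself.

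Detection differed with where and what the probes were. Of the 4621 transcripts, 894 had intervals that also held a probe of another class on the same strand, mostly for an annotated gene, and 44.5% of their lincRNA probes were tested. In the 458 intervals with such a probe on the opposite strand only, 33.9% were tested, and in the 3269 intervals without one, 34.5%. The tested share was larger at higher GC content of the probe, from 17.7% under 35% GC to 29.1%, 37.4% and 62.1% at 35 to 45, 45 to 55 and at least 55% GC. The hexamer AATAAA, searched on the probe's own strand, was present in 4.33% of the tested and 3.69% of the untested lincRNA probes, against 12.6% of the probes of other classes. Both strands of an interval often carried signal: 1067 intervals had probes for both strands, and in 591 of them both strands had a tested probe, in 348 one strand and in 128 none. By chromosome the tested share ran from 30.1% on chromosome 9 to 42.3% on chromosome 14.

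Only 1 lincRNA probe passed an adjusted p of 0.05, A_30_P01032767 on chromosome 9, which was lower in KO; none was higher (limma, adjusted over all 29980 tested probes). Under median scaling 3 were called lower and 7 higher. Over all tested probes of the array 14 were called (0.0467%), 11 lower (0.0367%) and 3 higher (0.01%). At an unadjusted p of 0.05, 810 lincRNA probes of 709 transcripts were lower and 44 probes of 25 transcripts higher. That is 13.7% and 0.744% of the 5914 tested, where the background over all tested probes was 7.14% lower and 1.09% higher. The 3 KO arrays lay all below the 3 WT arrays for 886 lincRNA probes (15.0%, background 8.61%) and all above them for 76 (1.29%, background 2.13%). More than 2-fold differences were measured for 183 probes lower in KO and 14 higher, where all tested probes gave 527 (1.76%) and 164 (0.547%).

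Most tested lincRNA probes were slightly lower in KO, by an amount that followed their signal and the scaling. Of the 5914, 4519 (76.4%) had a difference under 0, and the median was -0.24, against -0.03 for the 24062 probes of other classes and -0.05 for all tested probes. Scaling the arrays to the median of all probes turned the lincRNA median to 0.18, with that of all probes at 0.37, and quantile normalization gave -0.05 and -0.01. The split at an unadjusted p of 0.05 moved with it, to 109 lower and 296 higher under median scaling and to 363 lower and 153 higher after quantile normalization. Shares over all tested probes are not given for these scalings, so the counts are not read as particular to lincRNA probes. A probe could pass the filter through WT arrays alone; among the 3794 probes detected on all 6 arrays the median was -0.14. In bulk RNA, fewer cells of a type and less RNA per cell cannot be told apart.

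The size of the difference went with the signal in both kinds of probe. At mean signals from -4 to -3 the median difference was -0.51 for 2164 lincRNA probes and -0.48 for 3040 other probes. From -3 to -2 it was -0.37 (1630 probes) and -0.23 (3195 probes), and from -2 to -1 it was -0.11 (738) and -0.07 (2412). For signals of at least 0, the medians were -0.00 for 882 lincRNA probes and 0.01 for 12986 others. The lincRNA median was the lower one in each group of signals above -4, a difference that was not tested, and 36.6% of the tested lincRNA probes fell between -4 and -3, against 12.6% of the others. The pattern also differed between the 2 slides: the median lincRNA difference was -0.44 on slide 1, which held replicate 1 of each genotype, and -0.19 on slide 2, with replicates 2 and 3.

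**Figure D2:**
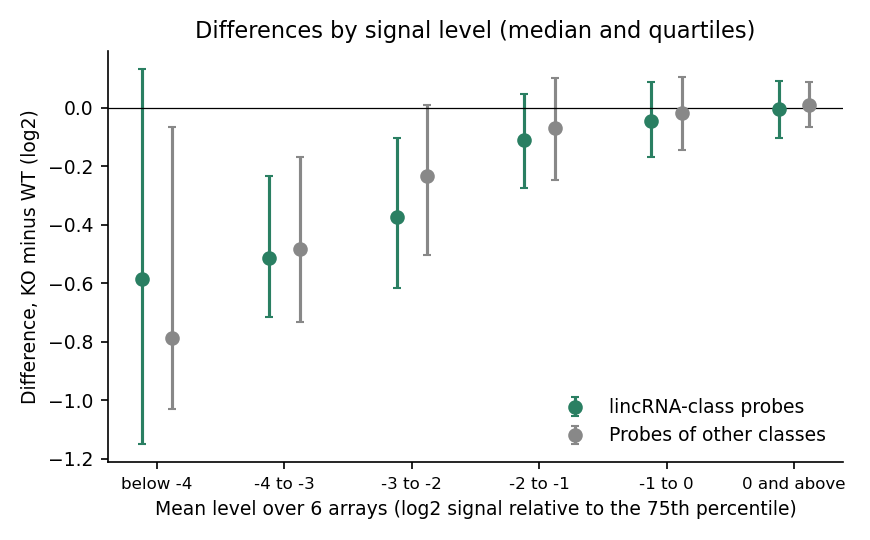
Median difference, KO minus WT (log2), with quartile bars, for tested probes grouped by their mean signal over 6 arrays; lincRNA-class probes in green and probes of other classes in grey. Both kinds lie below 0 at dim signals (-0.51 and -0.48 between -4 and -3) and at 0 for bright ones; the group below -4 holds only 23 and 44 probes.

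The called probe reads the reverse-strand transcript of a 36576-base interval of chromosome 9 (chr9:88575075-88611650, mm9). The array design gives this transcript no symbol, but the interval also holds a gene probe on the same strand (Gm2382). Whether the called probe reads an RNA separate from genes on that strand was not tested. The signal of the called probe was -2.30, -2.21 and -1.86 in WT and -4.38, -4.74 and -4.60 in KO. The groups were far apart, with the probe well above background on all 3 WT arrays and on no KO array. The difference was -2.45 (SE 0.19, limma, adjusted p = 0.0183). Since the KO signals were not well above background, a fold bound is given: in this scaling the probe was at least 3.47-fold lower there. The bound sets the WT mean against a floor and carries no error. It holds for this probe and scaling, not for the whole interval or for other background settings. Of the 3 tested probes of this transcript, 2 were under 0 and 1 was not. Within slides the difference of the called probe was -2.08 (slide 1) and -2.63 (slide 2). Leaving out any KO array or WT replicate 2 ended the call: the adjusted p became 0.0973, 0.0964 and 0.161 without KO replicates 1, 2 and 3, and 0.126 without WT replicate 2, with the difference between -2.54 and -2.31 when each of the 6 arrays was left out. The call was also lost after quantile normalization (-2.04, adjusted p = 0.338), with normexp background correction (-1.14, adjusted p = 0.08) and with the authors' deposited values (-2.04, adjusted p = 0.359), all by limma.

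The neighbouring probe A_30_P01033228, on the same strand, gave -2.84, -3.23 and -3.37 in WT and -5.01, -4.99 and -4.14 in KO. These values again did not overlap, and no KO array was well above background. Its difference of -1.57 (SE 0.28) did not pass (limma, adjusted p = 0.448), and it was at least 1.71-fold lower. Probe A_30_P01017555, which reads 55 of the same bases from the opposite strand, gave -3.0, -3.66 and -2.77 in WT and -3.07, -3.20 and -3.15 in KO, a difference of 0.00 (SE 0.24).

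**Figure D3:**
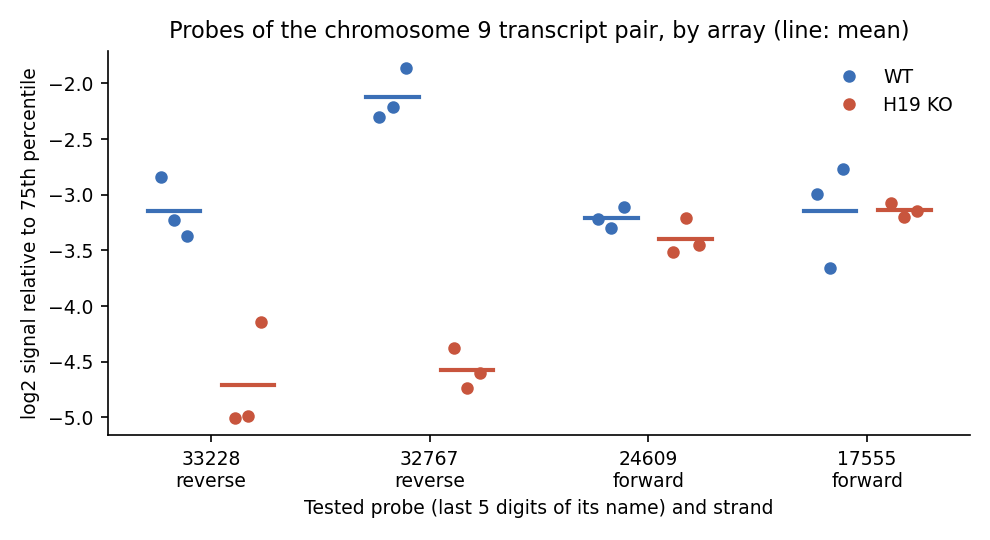
Signal of each array (log2 relative to the 75th percentile) for 4 tested probes from both strands of the chromosome 9 interval, WT in blue and H19 KO in red, with a line at each mean. Probes A_30_P01033228 and A_30_P01032767 separate the genotypes (means -3.15 and -4.71, -2.13 and -4.57); the arrays overlap for the 2 forward-strand probes shown.

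Nearby probes of other classes on chromosome 9 included both directions. The uncharacterised transcripts 9430037G07Rik (chr9:88490190-88490249) and 9330159M07Rik (chr9:88736652-88736711), both read on the reverse strand, were called lower, by -1.93 (SE 0.18; limma, adjusted p = 0.0291) and -2.10 (SE 0.20; adjusted p = 0.0306). The predicted gene Gm2382, read inside the same interval and on the same strand, was at 0.78 (SE 0.18; limma, adjusted p = 0.59), and 4930422I07Rik had probes at 0.80 and 0.93. The KO arrays lay all above the WT arrays for both genes. LincRNA probes between 75 and 110 Mb of the chromosome had a median of -0.43 (59 tested), close to the -0.39 of the 162 on the rest of it. At an unadjusted p of 0.05, 12 of the 59 and 32 of the 162 were lower. For the whole chromosome that is 19.9%, the highest share of any chromosome. Over all tested lincRNA probes the share was 13.7%, and over all tested probes of the array 7.14%.

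Other lincRNA probes lower in KO with non-overlapping arrays did not pass the adjustment. Probe A_30_P01018990 of chr5:123582742-123588202_F gave -1.04, -1.40 and -0.92 in WT and -2.74, -2.65 and -2.27 in KO, a difference of -1.44 (SE 0.20; limma, adjusted p = 0.293). It was detected on all 6 arrays, and the other tested probes of that transcript were at -0.55 and -0.70. Probe A_30_P01030644 of chrX:135880775-135891525_R gave -2.45, -2.57 and -3.55 in WT and -5.59, -4.65 and -5.38 in KO, a difference of -2.35 (SE 0.36; limma, adjusted p = 0.348), at least 2.09-fold lower. All 5 tested lincRNA probes of that region, on both strands, were under 0, from -2.35 to -0.55. Probe A_30_P01028959 of the short interval chr4:3746945-3747603_F was at -1.50 (SE 0.23) and at least 2.24-fold lower, with no KO array well above background. Differences of the remaining named probes were -1.15 for chr13:73472571-73483846_R, -1.31 for chr9:41184479-41240162_F, -1.37 for chr9:67414463-67483185_F and -1.06 for chr18:57124435-57134910_R. Adjusted p-values of these ran from 0.348 to 0.448 (limma).

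Several transcripts had all of their tested probes lower. The 3 probes of chr16:13514223-13516070_R were at -1.0, -1.26 and -0.61 and separated the genotypes, and a probe of another class for 2310015D24Rik at the same place was at -0.63 (SE 0.22). The first of them, A_30_P01021691, gave -2.45, -2.56 and -2.77 in WT and -3.68, -3.63 and -3.47 in KO (limma, adjusted p = 0.357). Of chr17:84470764-84486339_R, 4 of 5 probes were tested and ran from -1.40 to -0.75, and the 3 of chr11:53596919-53672731_R ran from -1.13 to -0.64, with Gm12216 beside them at -0.85. The smallest adjusted p of the latter transcripts was 0.59 in both (limma), and all 3 transcripts stayed under 0 with all 4 other scalings and background settings and with the deposited values. Over the 1505 transcripts with at least 2 tested probes, 1019 (67.7%) had differences of one sign, 873 all lower and 146 all higher. With 76.4% of all tested lincRNA probes under 0, unrelated probes would also often share a sign. Probes of a transcript share their source and often adjoin.

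Of the 44 probes higher at an unadjusted p of 0.05, 12 probes of 4 transcripts lay at Tug1 on chromosome 11, 6 of 2 transcripts on a stretch of chromosome 10, and 26 elsewhere. Probes of one transcript often adjoin, and no test of their spread over the genome was made. Tug1 is a widely expressed, spliced lncRNA with reported roles in the nucleus and cytoplasm. The array has 5 reverse-strand transcripts with tested probes at Tug1. In 3 of them, grouped after their values were seen (TUG1, chr11:3539787-3548811_R and chr11:3542140-3546888_R), the 11 tested probes lay above 0, from 0.44 to 1.05, and 10 of them separated the genotypes. Over all tested probes of the array, 2.13% had the KO arrays all above the WT arrays. The probes of chr11:3539787-3548811_R read most of the same bases as probes of TUG1, so the 11 are not independent measurements. Probe A_30_P01033104 of TUG1, the brightest, gave 2.04, 1.87 and 1.95 in WT and 2.62, 2.28 and 2.37 in KO, a difference of 0.47 (SE 0.16). Probe A_30_P01021848 of chr11:3542140-3546888_R gave -3.26, -3.10 and -3.27 in WT and -1.88, -2.49 and -2.11 in KO, a difference of 1.05 (SE 0.19). Neither passed (limma, adjusted p = 0.59 and 0.489), though under median scaling, where no share over all tested probes is given, 2 of the 11 were called. All 11 stayed above 0 in each of the scalings and background settings run, and they were above 0 on both slides, from 0.57 to 1.38 on slide 1 and from 0.34 to 1.01 on slide 2.

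The rest of the Tug1 region did not move as one. Both probes of other classes within the same stretch were also higher, at 0.53 (A_51_P119401) and 0.70 (A_55_P2123716). The third Tug1 probe of another class, A_52_P599162 at chr11:3544194-3544253, gave 0.09, -0.21 and -0.25 in WT and -2.44, -0.80 and -2.75 in KO, a difference of -1.88 (SE 0.48; limma, adjusted p = 0.59). It lies inside the intervals of those 3 transcripts and differed in the opposite direction. On the forward strand of the region, all 5 tested probes of chr11:3538125-3554450_F were under 0, from -0.62 to -0.19, and 3 separated the genotypes; median scaling turned 2 of the 5 above 0. Of these, A_30_P01030992 gave -0.10, -0.24 and -0.53 in WT and -0.83, -0.73 and -0.86 in KO, a difference of -0.52 (SE 0.17). The other 2 reverse-strand transcripts held both directions. The wider one, chr11:3538125-3554450_R, had probes at 0.85, -0.52, -0.02 and -0.00, and chr11:3548300-3549676_R had probes at -0.53 and 0.42.

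**Figure D4:**
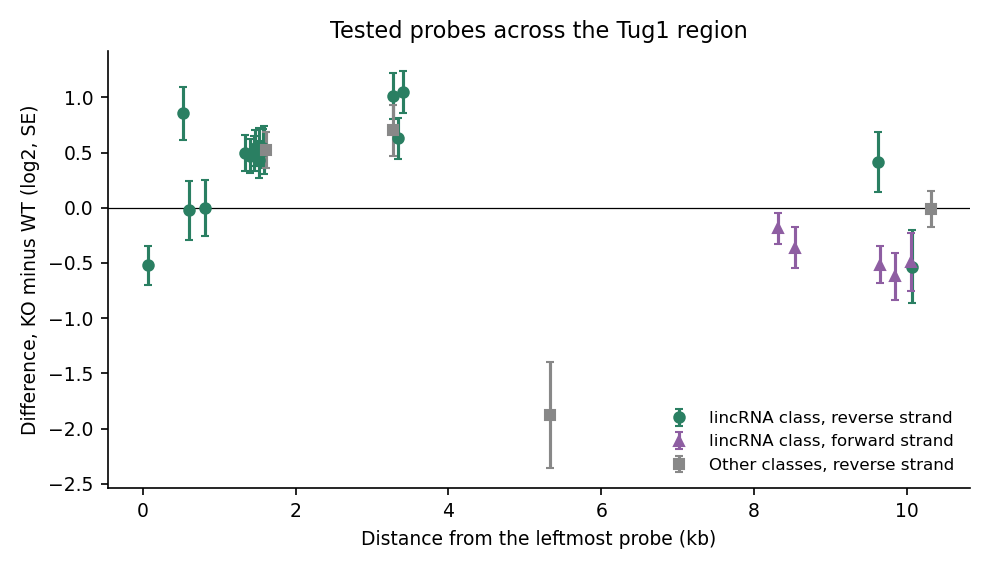
Difference, KO minus WT (log2, bars SE), of the tested probes across the Tug1 region against distance from the leftmost probe (kb); circles and triangles are lincRNA-class probes of the reverse and forward strand, squares are probes of other classes. The 11 probes of TUG1, chr11:3539787-3548811_R and chr11:3542140-3546888_R lie between 0.44 and 1.05, those of the other reverse-strand transcripts between -0.53 and 0.85, the forward-strand probes between -0.62 and -0.19, and a Tug1 probe of another class at -1.88.

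On chromosome 10, all 8 tested probes of 3 transcripts between chr10:6480075 and chr10:6603900, from both strands, were higher in KO, from 0.33 to 1.11. Their sign held in each of the scalings and background settings run, and 6 separated the genotypes. Probe A_30_P01025883 on the forward strand gave -2.0, -2.78 and -2.35 in WT and -1.57, -1.01 and -1.23 in KO, a difference of 1.11 (SE 0.25). Probe A_30_P01026658 of the short reverse-strand transcript chr10:6497224-6497863_R gave 0.41, -0.05 and 0.38 in WT and 0.74, 1.11 and 0.94 in KO, a difference of 0.69 (SE 0.19). Both had an adjusted p of 0.59 (limma). Over the 8 probes the difference ran from -0.09 to 0.45 on slide 1, where A_30_P01024342 was at -0.09 and A_30_P01026921 at 0.00, and from 0.38 to 1.44 on slide 2. No probe of another class was tested within 100 kb of them.

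Some single probes were higher without others of their transcript. A_30_P01018774 of chr2:31001736-31006911_R gave -4.64, -5.40 and -6.32 in WT and -2.0, -3.50 and -3.55 in KO, with no WT array and all KO arrays well above background. Its difference was 2.44 (SE 0.55; limma, adjusted p = 0.59) and at least 1.55-fold; the other tested probe of that transcript was at -0.58. With normexp the difference was 0.70. A_30_P01030422, which reads most of the same bases on the same strand, was not tested and gave -5.63, -6.36 and -5.91 in KO, with 1 WT array and no KO array well above background. A_30_P01019072 of chr9:65376063-65390480_R was at 1.19, with the 3 other tested probes at -0.53, -0.17 and -0.11.

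Detection on all arrays of one genotype and none of the other was counted without a test. It was met by 54 probes in WT only (0.333% of the usable lincRNA probes) and by 6 in KO only (0.037%). Among the 39408 usable probes of other classes, the counts were 77 (0.195%) and 23 (0.058%). The WT-only probes included both chromosome 9 probes above and A_30_P01031507 of chr10:18047851-18049641_R, at least 1.62-fold lower in KO but not called (limma, adjusted p = 0.539). Of the KO-only probes, A_30_P01021097 of chr5:149947200-149979950_F was at least 1.41-fold higher and A_30_P01028224, near the microRNA host gene Mir17hg, at least 1.21-fold. Neither was called (limma, adjusted p = 0.59 for each), and the difference of A_30_P01028224, 0.44 (SE 0.15), was as low as 0.082 in another setting. A_30_P01028422 of chr10:8606683-8665783_F was at 1.15 (SE 0.70), with KO values of -0.55, -2.74 and -3.47, so that KO replicate 1 stood above the others. The remaining KO-only probes, of chrX:98989930-98994344_F and chr15:101084597-101095097_F, were at 0.42 and 0.33 with overlapping arrays.

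Among the 11 transcripts with a symbol, those of the nuclear bodies were bright and close to equal in both genotypes. The brightest NEAT1 probe gave 6.92 ± 0.23 in WT and 6.89 ± 0.14 in KO (SD, n = 3), and the brightest NEAT2 probe, another name of Malat1, a nuclear speckle RNA, gave 6.71 ± 0.32 and 6.70 ± 0.38. The 5 NEAT1 probes differed by -0.08 to -0.03 and the 3 NEAT2 probes by -0.01 to 0.09. Under median scaling all 8 were above 0. The array design names 5 forward-strand probes KCNQ1ot1, whereas its Kcnq1ot1 gene probe, of another class, reads the reverse strand and was at 0.20 (SE 0.32). Of the 5, 4 were under 0 (-0.56 to -0.45) and the brightest was at 0.02 (SE 0.15). The 2 tested probes of lincP21, a transcript beside the cell cycle inhibitor gene Cdkn1a, were at -1.15 (SE 0.30) and -0.59, and stayed under 0 in each scaling run. XIST, TSIX, NRON, PINC and BRN1-A had 1 tested probe each, from -0.92 to -0.20 (NRON at -0.20, and at 0.20 after quantile normalization, 0.22 under median scaling and 0.20 with the deposited values), and none of the 5 HOTAIR probes was tested. No probe of these 11 passed the test (limma, smallest adjusted p = 0.59), and in this scaling TUG1 was the only one of them with all probes above 0.

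Named lncRNAs and proteins that act on such RNAs were also measured by other probe classes. Of 22 lncRNA genes on the array, 16 were tested: 11 were above 0 and 5 under it, with a median of 0.14 and none called (limma). Meg3, an imprinted lncRNA, was at 1.0 (SE 0.49), Gas5 at 0.31 (SE 0.15) and Rmrp at -0.28 (SE 0.19). Of 36 tested genes for the nuclear exosome, its cofactors and lncRNA-binding proteins, 16 were above 0 and 20 under it, between -0.15 and 0.31, and none was called. All of both lists were above 0 under median scaling.

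The brightest probes of the lincRNA class were close to equal in both genotypes. These are probe signals: whether other RNAs of like sequence bound to these probes was not tested. A_30_P01018056 of chr2:168804720-168854970_R gave 8.54 ± 0.09 in WT and 8.36 ± 0.10 in KO, and A_30_P01022075 of the short interval chr17:17481706-17482457_R gave 8.16 ± 0.10 and 8.20 ± 0.20 (SD, n = 3). A total of 3 adjoining probes of that chromosome 17 transcript were among the 6 brightest, with differences of 0.04, -0.15 and 0.03. A_30_P01020128 of chr4:141527564-141547339_F was at -0.10 and A_30_P01031754 of chr19:5801802-5802597_R, near Malat1, at 0.13. None passed (limma, adjusted p of at least 0.83).

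Near H19 on chromosome 7, 6 lincRNA probes were tested within 1 Mb, and none passed (limma, smallest adjusted p = 0.606). Besides the 5 of KCNQ1ot1, A_30_P01020249 of chr7:149108190-149123890_F gave -1.81, -3.02 and -3.60 in WT and -3.79, -3.18 and -3.45 in KO. WT replicate 1 stood above the others, and the difference was -1.99 on slide 1 and -0.00 on slide 2.

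LincRNA probes and their nearest tested probe of another class showed little likeness in their differences. Over 5184 pairs within 100 kb, the Pearson correlation was 0.06 and 54.6% of pairs had one sign; the pairs share arrays and signal-dependent shifts, and no test was made. For pairs on the same strand within 20 kb it was 0.21, with 60.2% of 1873 pairs of one sign. On opposite strands within 20 kb it was -0.05, with 52.1% of 1290 pairs. By chromosome, the median difference of the tested lincRNA probes ran from -0.39 on chromosome 9 to -0.10 on chromosome 19.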

How the data were processed

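Per the file headers, scanner output of 6 1-colour Agilent arrays (positions in mm9) was deposited with a background-subtracted intensity per spot and flags; the submitters' processing notes name Agilent Feature Extraction 10.7.3.1. The authors' deposited value table, also an intensity, was used as an alternative. Here log2 of the processed intensity minus each array's 75th percentile was taken, control and outlier spots were left out and spots of a probe averaged. The 29980 probes that were detected (flagged well above background) on 3 or more arrays were fitted with limma 3.58.1 (R 4.3.3; lmFit and eBayes), KO minus WT, and adjusted by Benjamini-Hochberg over all of them. For a fold bound, the brighter mean is set against a floor per array: the dimmest detected signal or the probe's own signal, if that is higher. Each bound ("at least") applies to this scaling only and is not a confidence limit. With normexp background correction a difference could be smaller than its bound.

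Named probes are those called, the next 10 per direction with non-overlapping arrays, up to 6 per direction detected in 1 genotype only, the 6 brightest, those within 1 Mb of H19, and up to 5 transcripts with 3 or more probes of one sign. Members, lists and rules were chosen with earlier results of these data known; the probe sets of the Tug1, chromosome 10 and other regions were drawn up after their values were seen. Names are those of the array design. Values of 1 named probe and of a further tested probe of the chromosome 9 interval are not reported here. On simulated data with 50 probes changed at each fold (29980 probes), the fit recovered 1 at 1.5-fold, 4 at 2-fold, 30 at 4-fold and 42 at 8-fold, with 2 false calls. The simulated spreads were shuffled over all tested probes, so these rates are not specific to the dim lincRNA probes. The simulated noise was independent between probes, with no slide or signal-dependent shift, so the 2 false calls give no rate for these arrays.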

Additional observations from a re-analysis of the deposited data

How the results depend on the processing

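Of 45 named probes, 42 kept their sign in every setting in which they were tested; the exceptions were the probe of chrX:98989930-98994344_F (-0.00031 with normexp), that of chr15:101084597-101095097_F (-0.029 with normexp, -0.038 to 0.65 when leaving out each array in turn, the lowest without WT replicate 3) and the brightest of KCNQ1ot1 (-0.059 with normexp, -0.042 to 0.07 when leaving out each array, under 0 without KO replicate 1 or, at -0.039, WT replicate 2). The count of called lincRNA probes lower in KO, 1 in the report, was 0 after quantile normalization, with normexp and with the authors' deposited values. It was also 0 with the filter at 1 array or none, and with the replicate number as a block. With the filter at 6 arrays or 1 probe per transcript it was 0 too, but the called probe was not tested there. Under median scaling it was 3, with 7 higher. The called probe ranged from -2.54 to -1.14, with adjusted p from 0.00246 to 0.359 (limma). Leaving out each array in turn gave 0 to 2 called lower, and 374 to 2173 lower and 29 to 101 higher at an unadjusted p of 0.05; 2173 came without WT replicate 3, 374 without WT replicate 2 and 378 without WT replicate 1. At that p, the lower count was 363 (quantile), 109 (median scaling), 373 (deposited values), 352 (detected on all 6 arrays), 1721 (no filter), 416 (1 probe per transcript) and 519 (intensity trend with robust prior), and the higher count 153, 296, 145 (in the first 3 of these), 78 (no filter) and 14 (1 probe per transcript). The median of the lincRNA differences was 0.177 under median scaling and between -0.321 and -0.05 in all other settings run. The number of probes tested differed between the filters, and the causes of the changes in count were not tested. No share over all tested probes is given beside the counts of these settings. By the limit of the negative control spots, 70.3% of lincRNA probes were detected in WT and 66.8% in KO, with 63 detected on all arrays of WT only and 18 of KO only. No sign of a pairing by replicate number was seen. Deviations of same-numbered arrays correlated at -0.21, -0.04 and 0.03, and no array correlated best with its own number. With 3 arrays per genotype these correlations depend on each other and cannot exclude a pairing. With the replicate number as a block, 1052 probes were lower at an unadjusted p of 0.05. Few arrays and dim signals limit what could be detected.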

Other observations

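A transcript near the end of chromosome 2, chr2:175432867-175469471_R, had a low signal on KO replicate 3 alone. Probe A_30_P01018761 (chr2:175432982-175433041) gave -1.23, -1.09 and -0.02 in WT and -0.18, -1.39 and -5.92 in KO. The other tested probes of the transcript, A_30_P01027102 and A_30_P01030337, gave -4.88 and -4.44 on that array, against -1.80 and -2.74, and -2.82 and -3.63, on the other KO arrays. The groups overlapped without it, and no probe passed the test (limma, smallest adjusted p = 0.771). A probe of another class at the same place, for ENSMUST00000134982, was at -1.55 (SE 1.17).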
